A study of Mus musculus with 2 samples.

Results

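Some endothelial cells of the mouse aorta carry transcripts of Bcan, Isl1 and Frzb. These Bcan Isl1 Frzb endothelial cells were 1141 of the 4774 cells recovered from 2 aortas. An endothelial cell (EC) was a barcode with at least 4 of the markers Pecam1, Cdh5, Tie1, Egfl7, Cldn5, Ecscr, Esam and Eng, with more of them than of 8 fibroblast markers, and with fewer than 2 of Myh11, Cnn1 and Lmod1. That held for 3600 cells. EC with more than 3 UMIs per 10000 of Adra2a, Coch, Sost, Tbx1 and Foxf2 together, a different regional set of genes, were put aside, which left 2257 kept EC. A Bcan Isl1 Frzb cell was a kept EC with at least 2 UMIs of Bcan, Isl1 and Frzb summed, and the reference was the 603 kept EC with 0. The 513 kept EC with 1 UMI belonged to neither. The choice of cells used these counts, so the levels of the 3 genes are given as a description with no test.

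The samples were the aortic linings of 1 C57BL6/J mouse aged 8 weeks (young) and 1 aged 18 months (old), with no genotype or treatment named. Endothelium was loosened with trypsin and a small blade from aortas freed of adventitia, and the RNA of single cells was counted by unique molecular identifiers (UMIs) at transcript 3′ ends with a droplet kit. Each age was 1 library from 1 animal, so old and young are set side by side with counting intervals and no test. The young library held 1366 cells and the old one 3408, and 11 barcodes occurred in both, none of them a Bcan Isl1 Frzb cell in both.

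Bcan encodes brevican, a hyaluronan-binding chondroitin sulfate proteoglycan of the lectican family that is best known from the matrix of the brain. Isl1 encodes a LIM-homeodomain transcription factor that marks progenitors of the second heart field, which gives rise to the outflow tract and the base of the great arteries. Frzb encodes a secreted frizzled-related protein that binds Wnt ligands outside the cell and limits their signalling. Aortic endothelium is known to differ along the vessel, and single-cell studies often sort it into groups by such regional genes.

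The sequences around the start sites of the 3 genes are shown because those genes define the cells. The windows run from 250 bases before to 50 bases after the RefSeq start (build GRCm38.p6), and capitals mark CCAAT on either strand. Bcan lay at chr3:88000307-88000606, Isl1 at chr13:116309639-116309938 and Frzb at chr2:80447347-80447646, all on the minus strand and written 5′ to 3′.
Bcan: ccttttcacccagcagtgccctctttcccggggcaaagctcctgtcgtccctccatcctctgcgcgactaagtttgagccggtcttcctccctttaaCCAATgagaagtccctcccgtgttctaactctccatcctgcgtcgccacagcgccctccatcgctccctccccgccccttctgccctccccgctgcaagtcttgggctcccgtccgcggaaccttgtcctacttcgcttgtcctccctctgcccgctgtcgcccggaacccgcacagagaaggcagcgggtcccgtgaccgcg
Isl1: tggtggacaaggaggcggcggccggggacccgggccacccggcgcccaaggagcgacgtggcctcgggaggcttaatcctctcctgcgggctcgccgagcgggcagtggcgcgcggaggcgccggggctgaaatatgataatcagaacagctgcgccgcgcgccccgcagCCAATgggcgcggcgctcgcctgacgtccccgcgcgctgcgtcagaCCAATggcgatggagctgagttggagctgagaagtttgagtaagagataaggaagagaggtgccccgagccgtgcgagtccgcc
Frzb: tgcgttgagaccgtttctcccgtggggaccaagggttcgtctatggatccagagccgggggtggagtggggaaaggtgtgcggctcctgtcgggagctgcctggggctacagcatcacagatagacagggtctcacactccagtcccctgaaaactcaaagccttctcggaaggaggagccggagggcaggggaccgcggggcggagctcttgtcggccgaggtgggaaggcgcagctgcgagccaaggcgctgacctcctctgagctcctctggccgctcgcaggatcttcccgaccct
CCAAT, searched on both strands, stood once in the Bcan window, 153 bases before the start, at 80 and 34 bases before the start of Isl1, and nowhere in the Frzb window. It occurred in 37.4% of all 32851 promoter windows of 300 bases. The homeobox core TAATTA (5.29% of all windows), the letters CTAATG (7.36%), TATAAA (13.6%) and the E-box CACGTG (7.15%) were in none of the 3 windows. The G and C content was 64.0% for Bcan, 69.0% for Isl1 and 64.7% for Frzb, against a median of 52.7% over all windows.

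Bcan Isl1 Frzb cells made up 259 of 570 kept EC in the young library (45.4%, exact 95% interval 41.3 to 49.6%) and 882 of 1687 in the old one (52.3%, 49.9 to 54.7%). Because a cell with more UMIs has more chances to show 2 of them, the rule also selected for depth. The cells had a median of 8562 UMIs in young and 6769 in old, against 4727 and 3499.5 in the reference. By the summed UMIs of the 3 genes, the median went from 6100.5 at 1 UMI and 6792 at 2 to 17952.5 at 10 or more in young, and from 3961 and 4867 to 11704 in old. For equal depth, each EC was thinned to 3000 UMIs and shallower cells were left out. The regional limit and the rule for Bcan Isl1 Frzb cells were then applied to the thinned counts. At 3000 UMIs that limit admits no UMI of Adra2a, Coch, Sost, Tbx1 or Foxf2, so these kept EC are not the same cells as at full depth. Of the kept EC at full depth, 519 young and 1325 old had at least 3000 UMIs. Of the kept EC at equal depth, 82 of 448 in young (18.3%, 14.8 to 22.2%) and 365 of 1132 in old (32.2%, 29.5 to 35.1%) qualified. The old share was above the young one at either depth, in 1 animal each. It was below the young share (41.0% against 43.7%) when barcodes with leukocyte or erythroid markers or very high UMI counts were left out. That filter left 588 old kept EC, and Bcan Isl1 Frzb cells with a median of 3981 UMIs in old against 7916.5 in young. Without its erythroid list the old share was 51.8% and the young one 44.4%.

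Isl1 was the gene seen in most of the cells at both ages, and Bcan the one whose level differed most between the libraries. In the young cells, Bcan had 110 UMIs, Isl1 548 and Frzb 458 in all. The old cells had 1074, 1511 and 1046. In CPM, the UMIs of a gene among all UMIs of the cells scaled to a common total, Bcan stood at 38.8 in young and 171 in old, a log2 ratio of 2.14 (95% interval 1.86 to 2.44). Isl1 stood at 193 and 241 (0.32, 0.17 to 0.46) and Frzb at 162 and 167 (0.04, −0.12 to 0.21). At equal depth, the share of kept EC with a Bcan UMI was 6.70% in young and 25.4% in old, for Isl1 33.3% and 38.1%, and for Frzb 19.9% and 25.6%. Intervals cover counting error only.

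**Figure D1:**
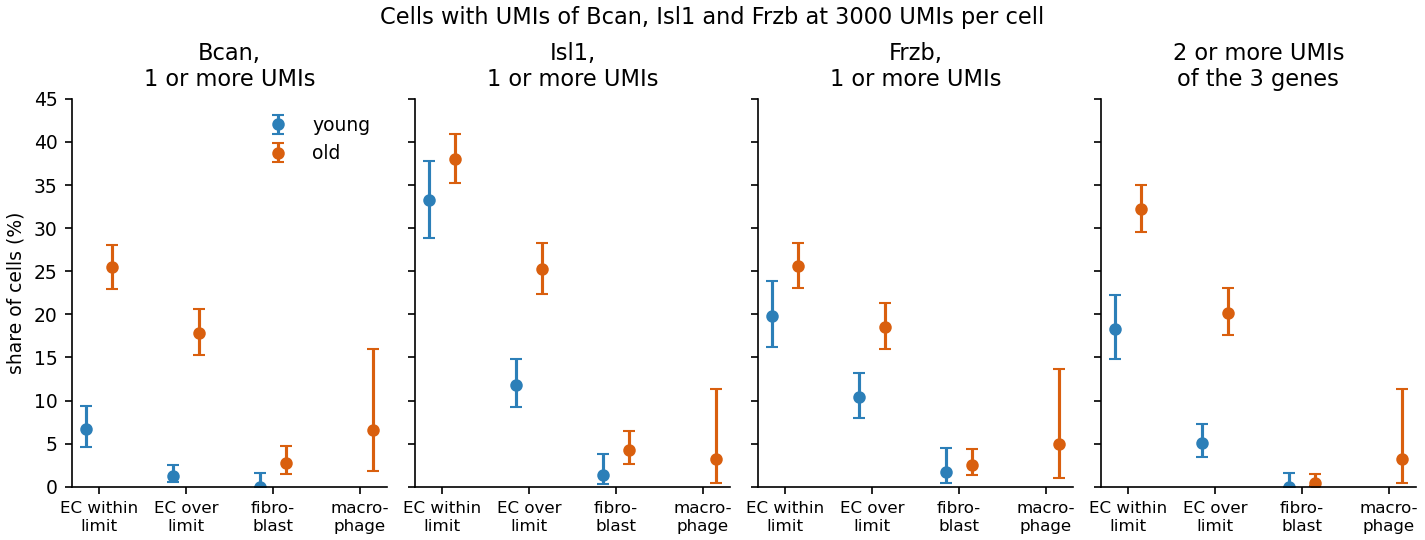
Share of cells (y axis, %) with at least 1 UMI of Bcan, Isl1 or Frzb, and with at least 2 UMIs of the 3 summed, after each cell was thinned to 3000 UMIs. Points are libraries (blue young, orange old) with exact 95% intervals, and the x axis lists kept EC within the regional limit, EC over it, fibroblasts and, in old only, macrophages. The regional limit was applied to the thinned counts. Kept EC stand highest in every panel at each age, and Bcan goes from 6.70% in young to 25.4% in old.

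Free RNA from broken cells gives UMIs to cells that do not express a gene, so the same shares were read in other cell types at 3000 UMIs. Among 226 young fibroblasts 0 to 1.77% showed a UMI of each gene, and among 471 old ones 2.55 to 4.25% did. For Bcan, the 0 of 226 has an exact 95% interval of up to 1.62%. Of 61 old macrophages, 3.28 to 6.56% did. The share of each gene in kept EC was above these in the same library. Over the regional limit at 3000 UMIs were all EC with any UMI of its genes, so some of them were kept EC at full depth. Full depth had 539 young and 804 old EC over the limit. In EC over the limit at 3000 UMIs, Bcan was seen in 1.24% of 566 young and 17.8% of 841 old cells. Isl1 was seen in 11.8% and 25.2%, and Frzb in 10.4% and 18.5%. With the classes drawn at this depth, each gene was thus seen in a smaller share of EC over the limit than of kept EC, in both libraries. None of the 3 genes was absent there. At full depth, 25.7% (12.5 to 43.3%) of the 35 old barcodes with smooth muscle markers had at least 2 UMIs of the 3 genes, against 52.3% of old kept EC.

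The label speaks of a subtype, and how far the 3 genes go together from cell to cell is described here with no test. At full depth, 69.5% of young and 76.5% of old Bcan Isl1 Frzb cells showed at least 2 of the genes, and 12.0% and 23.8% showed all 3. The rule asks for at least 2 UMIs of these same genes, so these shares partly follow from the choice of cells. The most frequent combination was Isl1 with Frzb in young (112 cells, 43.2%) and Bcan with Isl1 in old (214 cells, 24.3%), there followed by all 3 genes (210 cells). Among old kept EC at equal depth, Isl1 was seen in 41.0% of cells with a Bcan UMI (35.2 to 46.9%) and in 37.1% of cells without one (33.8 to 40.4%). Frzb was seen in 29.5% and 24.3% of the same cells. Isl1 was seen in 43.1% of cells with a Frzb UMI (37.3 to 49.0%) and in 36.3% of cells without (33.1 to 39.7%). In young, where 30 cells had a Bcan UMI, Frzb was seen in 33.3% of them (17.3 to 52.8%) and in 18.9% of cells without one (15.3 to 23.0%), and Isl1 in 43.3% and 32.5%. The young cells with a Frzb UMI showed Isl1 in 36.0% and those without in 32.6%. All these equal-depth shares were higher in cells that showed the other gene, and where intervals are given those of each pair overlapped. The cells are called here by their rule. This look at single genes was chosen after the first results.

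The cells were mixed with other kept EC when compared by their other genes. With the 27 genes of the rule removed and all cells at 3000 UMIs, 23.3% of the 15 nearest neighbours of a young Bcan Isl1 Frzb cell were such cells themselves, where 18.3% of all kept EC were. For reference cells it was 17.5%. In old, the values were 39.2% for Bcan Isl1 Frzb cells and 27.1% for reference cells, where 32.2% of kept EC were. Bcan Isl1 Frzb cells thus had slightly more neighbours of their own kind than their share in the kept EC, and most of their neighbours were other kept EC.

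Endothelial markers were present in the cells, with Cldn5 below the reference. Pecam1, an adhesion molecule of the endothelial junction, stood at 4030 CPM in the young cells and 3589 in their reference, and at 3508 and 2969 in old. Cdh5, the VE-cadherin gene, stood at 376 and 402, and at 363 and 346. Cldn5, a tight junction gene, was at 525 CPM in the young cells and 1081 in their reference, and at 628 and 1025 in old. By summed UMIs of Bcan, Isl1 and Frzb it was lower at each step, from 1081 CPM at 0 to 420 at 5 or more in young and from 1025 to 510.0 in old. Depth differed along these steps too. Pecam1, Cdh5 and Cldn5 belong to the rule for EC and were not tested. Mesothelial markers were at 0 in young, for all 7 genes of the list, and 6 of 7 were at 0 in old.

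Cells of other types entered the summed counts unevenly. The 9 macrophage markers summed to 400 CPM in young Bcan Isl1 Frzb cells and 20.7 in their reference, but to 190 and 2241 in old, with 3 of the markers at 0 in the young reference. A single young barcode held 97.7% of the 2596 Retnla UMIs of its group, and 5 young barcodes held 89.7% of the 1336 Cd74 UMIs. The 5 erythroid markers summed to 993 CPM in the old cells and 26729 in their reference, with haemoglobin UMIs (Hbb-bs) in 82.7% and 71.8% of the cells. The 7 proliferation markers stood at 46.9 and 250 CPM in young and at 40.3 and 71.9 in old. The 6 lymphatic markers stood at 14.5 and 66.2 CPM, and at 31.4 and 83.6. No doublet caller was run, and results that touch these genes are given again below without barcodes that carry 2 or more macrophage or lymphocyte markers or over 3 times the median UMIs.

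The first comparison asked what else distinguished Bcan Isl1 Frzb cells from kept EC with none of the 3 genes. UMIs were summed per library and class, and the classes were compared within each animal with edgeR's quasi-likelihood test. Of 10152 genes tested, 1 was called higher (0.00985% of the genes tested) and 9 lower (0.0887%) at an adjusted p under 0.05. Without the pairing by animal, 0 genes were called, with 319 at an unadjusted p under 0.05, against 835 with the pairing, so the calls rest on the 2 within-animal differences. The genes of the rule were chosen from these same libraries, so a difference between the classes is not independent evidence that they are distinct.

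Apoe, the gene of apolipoprotein E, a lipid transport protein, was the gene called higher (ENSMUSG00000002985, chromosome 7, 19696109 to 19699188, GRCm38). It stood at 6538 CPM in the young cells and 4781 in their reference, and at 3885 and 2604 CPM in old. The log2 difference was 0.48 (SE 0.038, adjusted p = 0.0197), and 0.48 at equal depth. EC over the regional limit with none of the 3 genes held 6561 CPM of Apoe in young and 3203 in old, so in young they were level with the Bcan Isl1 Frzb cells. By the summed UMIs of the 3 genes, it was in old 2604 CPM at 0 UMIs, 2973 at 1, 3159 at 2, 3641 at 3 to 4, and 4466 at 5 or more. In young it was 4781, 4590, 5255, 6408 and 7285 CPM, so that the cells with 0 and 1 UMI were in reverse order there. Median depth was also higher towards the cells with most UMIs of the 3 genes.

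Among the genes called lower, Stmn2 encodes a tubulin-binding phosphoprotein known from neurons (chromosome 3, 8509360 to 8561606). It stood at 153 CPM in young and 111 in old Bcan Isl1 Frzb cells, and at 358 and 312 CPM in the reference, a log2 difference of −1.40 (SE 0.11, adjusted p = 0.0197). It was lower at every step of summed UMIs of the 3 genes, from 358 through 246, 226 and 168 to 105 CPM in young and from 312 through 206, 143 and 116 to 88.5 CPM in old. Depth differed along these steps too. Ly6a, the gene of the surface protein Sca-1, stood at 401 and 754 CPM in young and at 810 and 1398 in old (−0.88, SE 0.063, adjusted p = 0.0197). Ly6c1, of the same Ly6 family, stood at 383 and 666 CPM, and at 600 and 929 (−0.75, SE 0.068, adjusted p = 0.0308). Ly6c1 shares 15.1% of its 3′ 50-base stretches with Ly6c2, so reads of these 2 may be mixed. Adgrg1, an adhesion G protein-coupled receptor, stood at 12.7 and 48.6 CPM in young and at 8.92 and 31.5 in old (−1.91, SE 0.20, adjusted p = 0.0465). Tcf4, a basic helix-loop-helix factor, stood at 24.7 and 81.7 CPM, and at 28.4 and 69.2 (−1.51, SE 0.15, adjusted p = 0.0465), but at equal depth its adjusted p was 0.0985. Young fibroblasts held 3166 CPM of Ly6a and old macrophages 120 CPM of Tcf4, and the part of free RNA from them was not tested. With barcodes carrying leukocyte markers left out, the differences were 0.49 for Apoe, −1.55 for Stmn2, −0.80 for Ly6a, −0.73 for Ly6c1, −1.82 for Adgrg1 and −1.45 for Tcf4, and edgeR called all 6.

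The other 4 genes called lower are known from leukocytes or from DNA replication. Coro1a and Rac2 are leukocyte genes of the actin skeleton and of Rac signalling. Coro1a stood at 9.52 and 54.8 CPM in young and at 8.76 and 75.8 in old (log2 difference −2.94, SE 0.21, adjusted p = 0.0197), but its CPM was 124 times that of these cells in old B cells. Without barcodes carrying leukocyte markers its difference was −0.33 and not called. Rac2 stood at 6.35 and 27.9 CPM in young and at 5.73 and 43.2 in old (−2.67), and had 170 times the CPM of these cells in old B cells. Top2a and 2810417H13Rik are genes of DNA replication that the rule for naming genes does not reach and that were named after their values were seen. All 39 Top2a UMIs of the young reference came from 5 of its 167 cells.

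**Figure D2:**
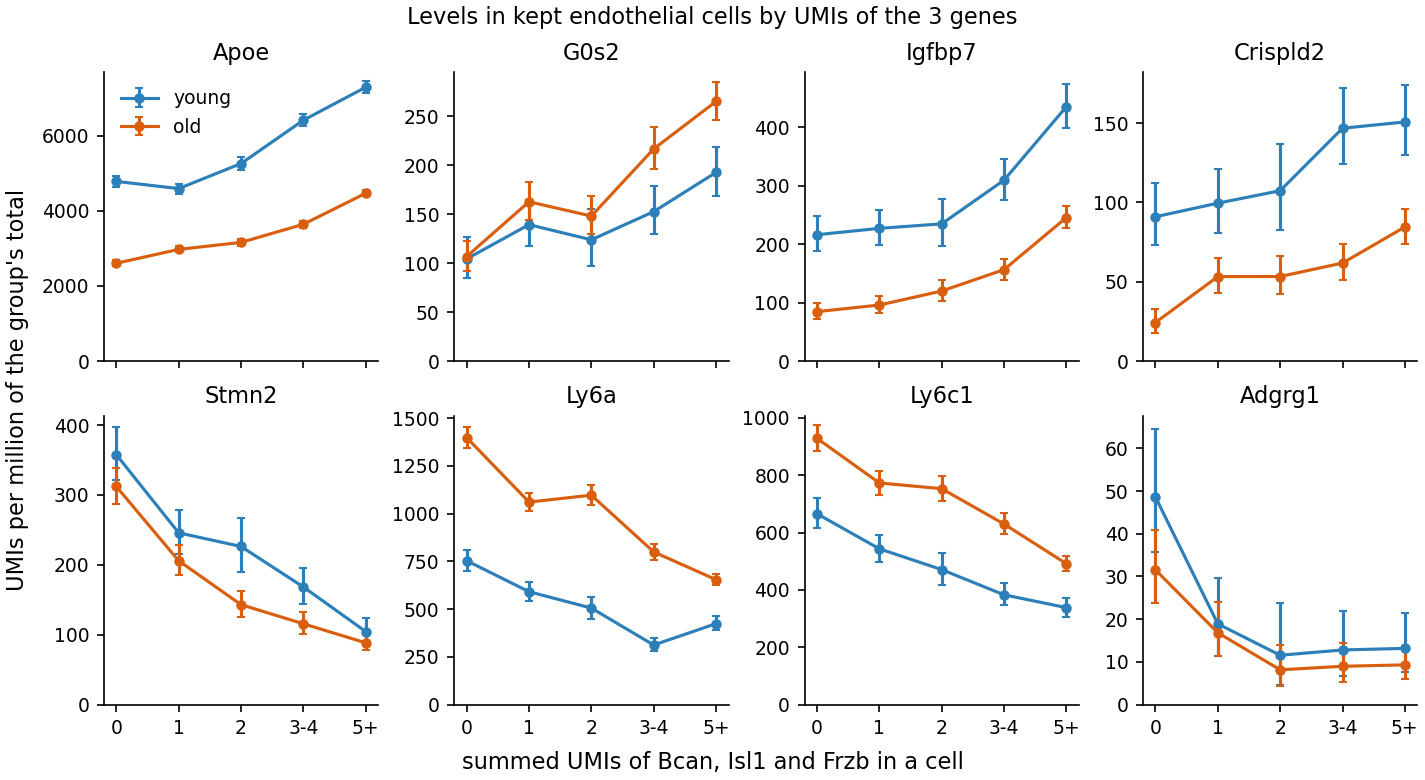
Level of 8 genes (y axis, CPM within the group) in kept EC grouped by their summed UMIs of Bcan, Isl1 and Frzb (x axis). Blue is young and orange old, 1 library each, with exact Poisson 95% intervals. Stmn2 goes down and Igfbp7 up towards cells with 5 or more UMIs, for Stmn2 to 105 CPM in young and 88.5 in old. Depth also differs along the x axis, with a median of 4727 UMIs per cell at 0 and 14641 at 5 to 9 in young. In old these medians are 3499.5 and 8814.5.

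The same comparison at equal depth, with all cells thinned to 3000 UMIs before the rule was applied, called 30 genes higher (0.366% of 8200 tested) and 73 lower (0.89%). The highest were Aldh1a2, Thbs1, Crispld2, Igfbp7, Emb and G0s2. Aldh1a2, which makes retinoic acid from retinal, stood at 20.3 CPM in young cells and 2.89 in their reference and at 74.9 and 31.6 in old (log2 difference 1.28, SE 0.28, adjusted p = 9.0e-04 by edgeR). Thbs1, the matricellular thrombospondin, stood at 191 and 82.3 CPM, and at 66.7 and 28.4 (1.19, SE 0.22, adjusted p = 1.5e-05). Igfbp7, a secreted binding protein of insulin-like growth factors, stood at 447 and 238 CPM, and at 224 and 94.1 (1.06, SE 0.13, adjusted p = 8.5e-13). G0s2, an inhibitor of the lipase that releases fat from droplets, stood at 211 and 121 CPM, and at 254 and 113 (1.02, SE 0.14, adjusted p = 4.4e-10). In these 4 genes the young and the old cells were each above their own reference.

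Further genes called higher at equal depth were the semaphorin and VEGF co-receptor Nrp1 (log2 difference 0.57), the thrombin receptor F2r (0.64), the sodium pump subunit Atp1b1 (0.78), the flavin monooxygenase Fmo2 (0.64), the alcohol dehydrogenase Adh1 (0.56) and the growth factor Bmp4 (0.50). Igfbp7 and Tagln (0.76) had over 3 times the CPM of these cells in old smooth muscle-marked barcodes. At full depth Bmp4 stood at 650 CPM in young cells and 670 in their reference and at 510.2 and 410 in old (0.10, adjusted p = 0.80). The genes Igfbp7, G0s2, Crispld2 and Fmo2 stood higher in both libraries at full depth too, with differences of 0.87 for Igfbp7, 0.83 for G0s2, 1.00 for Crispld2 and 0.85 for Fmo2, and adjusted p-values between 0.075 and 0.21. Most of the 15 genes with the lowest values at equal depth were macrophage genes, such as C1qb at 23.7 CPM in old cells and 248 in their reference. Outside those, Stmn2, Ly6a, Ly6c1 and Adgrg1 were called lower again, as was the collagen gene Col8a1 (−2.38).

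Of the 21 gene lists examined, none had a called member in the first comparison. The Wnt antagonist list, to which Frzb belongs, had 10 genes tested besides it, 5 of them above 0, with a median log2 difference of −0.07 against 0.01 over all genes tested. Sfrp1, a relative of Frzb, stood at 2117 CPM in young cells and 1646 in their reference and at 1567 and 1055 in old (0.43, adjusted p = 0.075), and it was called higher at equal depth (0.47). Of the lecticans and their partners, to which Bcan belongs, 6 genes were tested, 3 of them above 0 (median 0.03). Fbln2, a fibulin that binds lecticans, stood at 814 and 705 CPM, and at 821 and 705 (0.18, adjusted p = 0.57). Of LIM-domain and cardiac transcription factors, the list of Isl1, 13 of 19 were above 0 (median 0.25), led by Meis1 (0.59, adjusted p = 0.48) and Tbx18 (0.55, adjusted p = 0.63).

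The MHC class II genes, which present antigen, were a list whose direction changed with the settings. All 6 tested were above 0 at full depth (median 0.34), and without the pairing all 6 were below 0. At equal depth none was above 0 (median −0.61) and 4 were called lower, where 0.89% of all genes tested were. Cd74, the invariant chain, stood at 471 CPM in young cells and 51.7 in their reference, but at 1081 and 2660 in old. Without barcodes carrying leukocyte markers it stood at 64.4 and 55.7 CPM in young (log2 ratio 0.21, 95% interval −0.26 to 0.70) and at 983 and 712 in old (0.46, 0.36 to 0.57).

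The libraries were also set against each other, since they share no cell. Over 5038 genes with at least 100 UMIs in each library, 57.6% differed in the same direction in young and old. The log2 ratios had a Pearson r of −0.09 across genes, which are not independent replicates. These sums include the barcodes carrying leukocyte markers, and r was not computed without them. Of the 50 genes with the highest ratio in young, 33 were above 0 in old, and of the 50 with the lowest, 35 were below 0. The plot of both libraries shows this as a round cloud, with ratios of genes such as Cd74 and Lpl high in young and low in old.

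**Figure D3:**
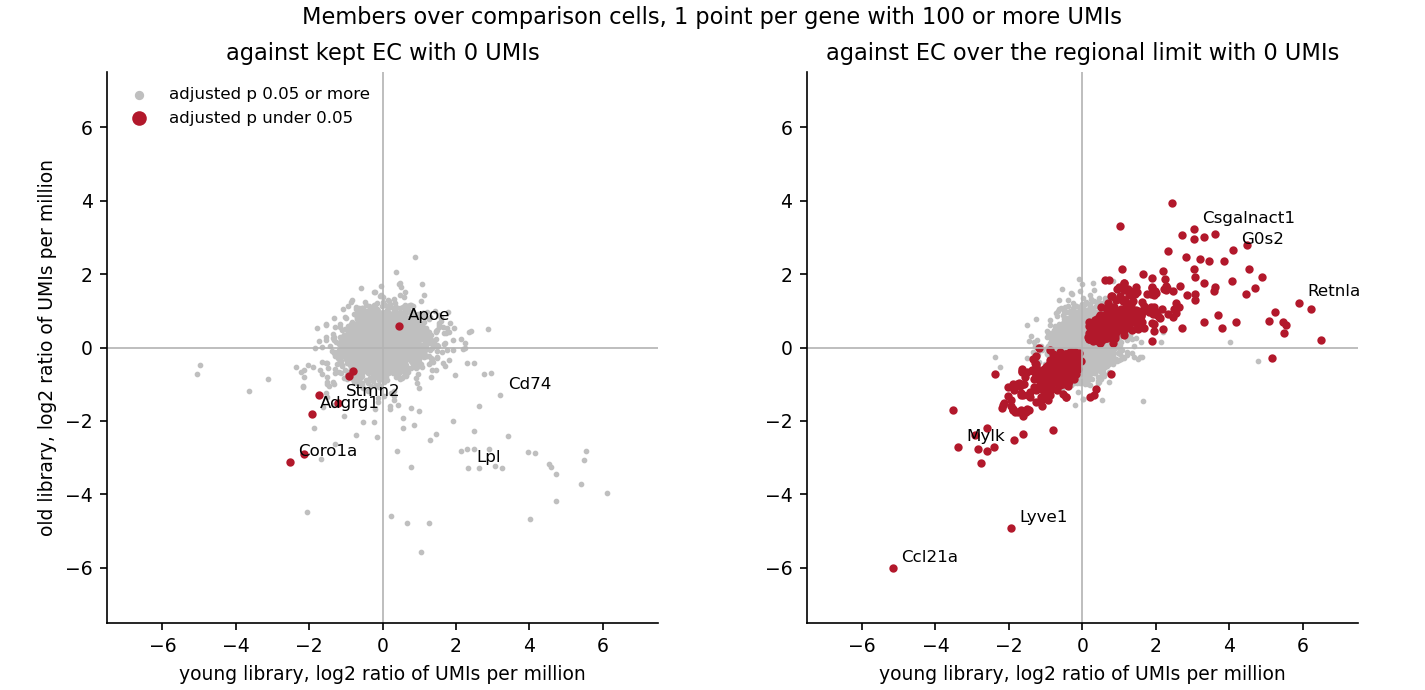
Log2 ratio of CPM in Bcan Isl1 Frzb cells (members) over the comparison cells, in the young (x axis) and the old library (y axis), for genes with at least 100 UMIs and a UMI in every sum. Red points have an adjusted p under 0.05. Against kept EC with 0 UMIs (left) the ratios have r = −0.09 over genes with at least 100 UMIs in each library, and against EC over the regional limit (right) r = 0.62. Barcodes carrying leukocyte markers are included.

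A second comparison set the Bcan Isl1 Frzb cells against the other regional group, the 340 young and 346 old EC over the regional limit with 0 UMIs of the 3 genes. It was added after the first comparison had given 10 calls. Median depth here was 8562 UMIs against 7990.5 in young and 6769 against 4037.5 in old. Of 10516 genes tested, 446 were called higher (4.24%) and 446 lower (4.24%). At equal depth it was 146 and 164, with DESeq2 92 and 114, and without the pairing by animal 2 and 4. Directions held between the libraries in 62.9% of 6585 genes, and in 49 of the 50 genes with the highest ratio in young and 48 of the 50 with the lowest. These groups were split by 8 genes, and anything that varies with those genes follows the split.

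The genes higher in Bcan Isl1 Frzb cells included enzymes, matrix genes and transcription factors. Aldh1a2 stood at 9.17 CPM in young and 76.0 in old, against 0 UMIs in 340 cells and 9.08 CPM in EC over the limit (log2 difference 3.32, SE 0.29, adjusted p = 1.5e-07). G0s2 stood at 164 CPM in young and 221 in old, against 9.47 and 35.2 (3.26, SE 0.18, adjusted p = 3.0e-10). Crispld2, a secreted protein gene, stood at 140 and 69.8 CPM, against 12.8 and 13.6 (3.06, SE 0.18, adjusted p = 5.8e-10). Csgalnact1, which starts chondroitin sulfate chains of the kind that brevican carries, stood at 27.5 and 26.6 CPM, against 3.36 and 2.84 (3.07, SE 0.28, adjusted p = 2.0e-07). In these 4 genes both libraries were above the EC over the limit. The kept EC with none of the 3 genes lay between, for instance at 15.5 and 12.2 CPM of Csgalnact1, except that young ones had 0 UMIs of Aldh1a2 too.

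Slc26a4, Tac2 and Pax9 are best known from other organs, and each was low in absolute terms. Slc26a4, the anion exchanger pendrin, stood at 40.6 CPM in young and 39.7 in old, against 4.89 and 5.11 (2.99). Tac2, a tachykinin precursor, stood at 22.6 and 19.3 CPM, against 1.83 and 2.27 (3.38). Pax9, a paired-box factor of the pharyngeal pouches, stood at 21.2 and 27.4 CPM, against 0.917 and 6.24 (2.98). The homeobox factor Nkx2-3 was at 160 and 219 CPM against 18.9 and 57.9 (2.41, adjusted p = 3.5e-09), and the plasminogen activator Plat at 155 and 203 against 32.1 and 63.0 (1.95, adjusted p = 1.2e-09). Against kept EC with none of the 3 genes, Nkx2-3 at equal depth stood at 142 and 141 CPM in young and at 255 and 184 in old (0.32, adjusted p = 0.49). Retnla, Lyz1, Ccl6 and Ccl9, which also led by size, are macrophage genes. Leaving out barcodes with leukocyte markers gave differences of 0.08 for Retnla and −0.51 for Ccl9.

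Lower in the Bcan Isl1 Frzb cells was first Ccl21a, a chemokine of lymphatic endothelium, at 1.41 CPM in young and 6.69 in old, against 50.1 and 433 (log2 difference −5.95, SE 0.15, adjusted p = 2.9e-15). It shares 75.8% of its 3′ stretches with copies in the annotation, and with Lyve1 and Mmrn1 it is a lymphatic marker, whose part in the difference was not tested. Mylk, a myosin light chain kinase, stood at 12.3 and 14.7 CPM against 128 and 95.9 (−2.99). Tcf4 stood at 24.7 and 28.4 CPM against 175 and 193 (−2.81), Stmn2 at 153 and 111 against 562 and 631 (−2.22), and Adgrg1 at 12.7 and 8.92 against 67.8 and 58.4 (−2.59). In Tcf4, Stmn2 and Adgrg1 the kept EC with none of the 3 genes lay between at both ages. The growth factor Igf2 stood at 9.17 and 26.6 CPM against 69.1 and 139 (−2.53), and Cp, the copper protein ceruloplasmin, at 130 and 148 against 484 and 482 (−1.82).

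By list, matrix and vascular tone genes split in both directions. Beside the counts below, 4.24% of all genes tested were called in each direction. Of 15 elastic fibre genes, 2 were called higher and 4 lower. Fbln5 and Eln, a fibulin and elastin itself, fell by 1.72 and 1.04 on the log2 scale, and Mfap5, a microfibril protein, was higher by 0.86. Of 20 shear-responsive and vasoactive genes, 8 were called higher and 4 lower. Calcrl, the receptor of adrenomedullin and CGRP, stood at 279 CPM in young and 174 in old, against 72.4 and 64.1 (1.72, adjusted p = 1.5e-09). Edn1, the vasoconstrictor endothelin, stood at 184 and 133 CPM against 523 and 209 (−1.13, adjusted p = 3.7e-06). Of 14 basement membrane genes, 3 were called higher and 4 lower, from Col4a5 (3.91) to Col8a1 (−2.74).

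Signalling lists differed in their share of calls, against 4.24% of all genes called in each direction. Of 10 Wnt antagonists tested, 3 were called higher and 0 lower, led by Dkk3 at 20.1 CPM in young and 22.6 in old, against 2.44 and 5.11 (2.57, adjusted p = 6.0e-06). Of 23 Wnt ligands, receptors and effectors, 0 were called higher and 1 lower, Tcf7l1 (−0.60, adjusted p = 0.042). Of 17 BMP and TGF-beta genes, 4 were called higher and 2 lower. Bmp4 was lower than in EC over the limit (−0.46) and, at equal depth, higher than in the reference (0.50). Of 12 retinoic acid genes, Aldh1a2 was called higher, and the degrading enzyme Cyp26b1 (−1.46) and the receptor Rarb (−3.46) lower.

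MHC class II genes were all called higher here, 6 of 6, where 4.24% of all genes tested were, with a median of 1.89. The median was 1.36 without barcodes carrying leukocyte markers and 0.67 at equal depth, with 6 calls in each. Of all genes tested at these settings, 481 of 10267 and 146 of 8776 were called higher. DESeq2 called 1 of them, and edgeR without the pairing 0. The part of free macrophage RNA was not tested.

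Hox genes, homeobox genes that pattern the body axis, all lay below 0 against the EC over the limit, 18 of 18, and 10 were called lower (median −0.60), where 4.24% of all genes tested were called lower. Hoxb9 stood at 42.3 CPM in young and 42.5 in old cells, against 77.3 and 85.1 (−0.96, SE 0.12, adjusted p = 1.0e-05). Hoxd9 stood at 2.47 and 3.66 CPM against 11.9 and 10.8 (−1.85, SE 0.35, adjusted p = 0.0012). At the other end, Hoxb2 stood at 40.2 and 37.6 CPM against 40.0 and 38.6 (−0.03, adjusted p = 0.95). At equal depth 1 of 16 was above 0 (median −0.38) and 0 were called, and at full depth DESeq2 called 1 lower and edgeR without the pairing 0. Against kept EC with none of the 3 genes, 8 of 17 Hox genes were above 0 (median −0.03). The dissection named no stretch of the aorta, so position along the vessel was not known.

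**Figure D4:**
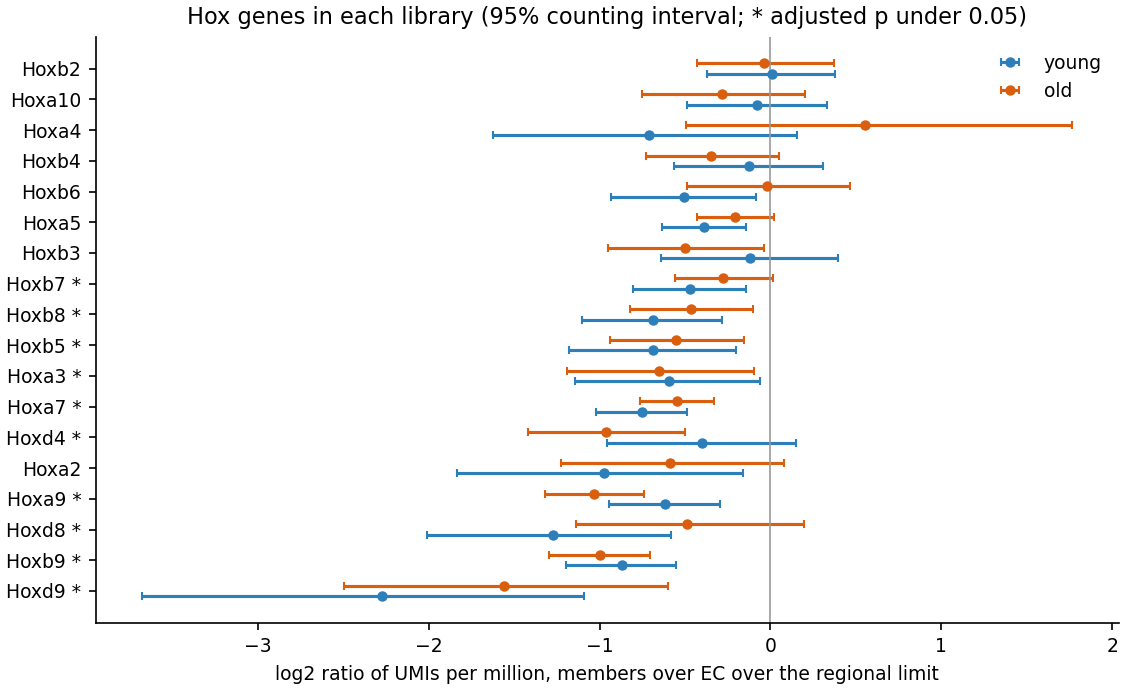
Log2 ratio of CPM in Bcan Isl1 Frzb cells over EC over the regional limit with 0 UMIs (x axis) for the 18 Hox genes tested (y axis). Points are the young (blue) and old (orange) library with exact 95% counting intervals, and a star marks an adjusted p under 0.05. Most points lie left of 0, from −0.03 in the fit for Hoxb2 to −1.85 for Hoxd9.

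Old and young Bcan Isl1 Frzb cells were compared over 9588 genes with at least 50 UMIs, and over these the log2 of the old level over the young one had a median of 0.06. With 1 animal per age these are values of 2 libraries. Aldh1a2 stood at 9.17 CPM in young (26 UMIs) and 76.0 in old (477 UMIs), a log2 ratio of 3.05 (95% interval 2.48 to 3.68). A UMI of it was seen in 5.41% of young and 28.7% of old cells. Cyp26b1, which breaks retinoic acid down, had 0 UMIs in young and 82 in old, with an exact 95% lower bound of 3.30 for the log2 ratio. In the reference Aldh1a2 had 0 and 41 UMIs, and Cyp26b1 had 1 and 33. Young fibroblasts held 3.37 CPM of Cyp26b1, and the part of free RNA was not tested. Of 11 retinoic acid genes measured, 10 were above 0 (median 0.80, against 0.30 in the reference), while at equal depth 2 of 4 were (median 0.43).

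Other genes with high ratios were Rspo1, a secreted enhancer of Wnt signalling (2 UMIs in young and 78 in old), Kif5c, a kinesin motor (log2 ratio 3.55), the tropomyosin Tpm2 (3.38), the kallikrein Klk1b21 (2.53), and Gucy1a3, a subunit of the nitric oxide receptor (2.84). In the reference the ratios were 2.60 for Rspo1, 2.27 for Kif5c, 2.24 for Klk1b21 and 0.54 for Gucy1a3 (−0.77 to 2.03), and Tpm2 had 0 and 41 UMIs, so most of these genes were higher in old reference cells too. Old smooth muscle-marked barcodes held 2542 CPM of Tpm2, against 10.99 in old Bcan Isl1 Frzb cells and 22.7 in their reference. They also held 5.03 times the CPM of Gucy1a3, and young fibroblasts 10.9 times that of Rspo1, and the part of free RNA was not tested. Klk1b21 shares 25.9% of its 3′ 50-base stretches with Klk1b24 and 14.2% with Klk1b27, so reads of these kallikreins may be mixed. The chemokine Cxcl9 had 0 and 60 UMIs, but 81.7% of the 60 lay in a single barcode.

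Lower in old were Vps8 (−3.51), Nme2 (−3.47), Sik1 (−2.76), Btg3 (−2.67) and Ahsg (−2.60). Reference cells were lower in old for these genes too, by −3.06 for Nme2, −2.19 for Sik1, −2.79 for Btg3 and −1.82 for Ahsg. Vps8, a trafficking gene, stood at 181 CPM in young and 15.9 in old, and its reference ratio was −3.80. Nme2 shares 98.9% of its 3′ stretches with another annotated gene, and counting could split its reads. Atf3, a stress-induced transcription factor, stood at 129 CPM in young and 13.5 in old (−3.25, −3.61 to −2.91), and its reference ratio was −0.52, while old macrophages held 727 CPM. The reference ratio of Atf3 was −2.09 (−2.77 to −1.46) without barcodes carrying leukocyte markers. Of 18 immediate early genes, 2 were above 0 (median −1.27, against −0.63 in the reference). That list had medians of −1.34 and −0.95 without barcodes carrying leukocyte markers, and of −1.02 and −0.82 at equal depth. The MHC class II genes were above 0 in 6 of 6 (median 1.29, against 4.43 in the reference). Without barcodes carrying leukocyte markers the medians were 2.69 and 3.19.

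**Figure D5:**
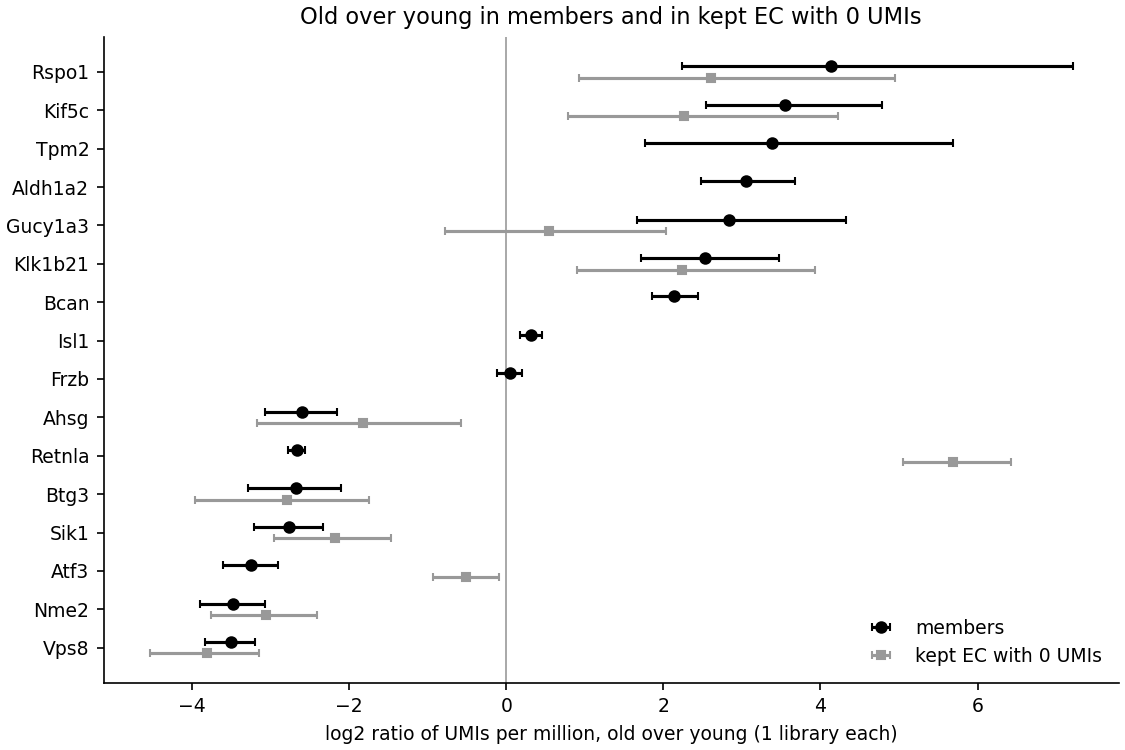
Log2 ratio of CPM, old over young (x axis), in Bcan Isl1 Frzb cells (members, black) and in kept EC with 0 UMIs of the 3 genes (grey), with exact 95% counting intervals from 1 library each. Genes with 0 UMIs in a group have no point. Bcan stands at 2.14 and Frzb at 0.04. For Retnla (−2.67) the classes lie on opposite sides of 0, and 1 young barcode held 97.7% of the Retnla UMIs of the young members. Without barcodes carrying leukocyte markers the Retnla ratios were 1.85 in members and 1.92 in kept EC with 0 UMIs. Bcan, Isl1 and Frzb chose the cells, so their ratios are a description that also varies with depth.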

How the data were processed

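Aortic endothelial cells of 1 young and 1 old mouse were profiled by 3′ single-cell RNA sequencing. The deposited files hold raw UMI counts per gene and barcode for 27998 genes. The notes the submitters gave on processing name Cell Ranger and the build GRCm38, and their version was not given in the sources used here. No further cell filter and no doublet caller was applied in the main values. UMIs were summed per library and class, and edgeR 4.0.16 (R 4.3.3) fitted quasi-likelihood models with TMM factors, filterByExpr and Benjamini-Hochberg adjustment over all genes tested. Members and reference of a library come from the same animal, so the library was the block, which leaves 1 residual degree of freedom. The SE given with a log2 difference is its absolute value divided by the square root of the test's F statistic. It is not a spread measured between animals. The 27 genes of the rule were left out of the genes tested and kept in the library sizes. Exact conditional binomial intervals of ratios and exact Clopper-Pearson intervals of shares are at 95% and cover counting error only. The depth was 12576023 UMIs in young (median 7558.5 per cell) and 19171045 in old (median 4737).

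Named genes were the 15 highest and 15 lowest called with at least 100 UMIs and the same direction in both libraries, the 2 highest and 2 lowest of each list the text describes, and, for age, the 8 highest and 8 lowest with at least 50 UMIs, ranked by the interval bound nearest to 0. Ribosomal protein, mitochondrial, haemoglobin, sex-linked and unnamed genes were left out. A gene with over 3 times the CPM of the described cells in any other class with 20 or more cells was marked as possible free RNA. Equal depth means 3000 UMIs per cell, with the regional limit and the rule for Bcan Isl1 Frzb cells applied to the thinned counts. Alternatives were DESeq2 1.42.0, no filter, no block, other limits of the rule and other cell filters. The cells and gene lists were chosen with earlier results of these data known. The comparison with EC over the regional limit, the values by number of UMIs, the view of single genes, the filter on leukocyte markers without the erythroid list, the genes named for being higher in both libraries without a call, other list members named, and the search for shared 3′ ends (50-base stretches) were added after the data were seen. The scripts were tested on simulated data. One gene that the naming rule picks is not reported here.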

Additional observations from a re-analysis of the deposited data

Results flagged for a closer look

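In each result below the young and the old library moved in opposite directions, or the classes of cells did, and the difference itself was not tested. Between Bcan Isl1 Frzb cells and kept EC with none of the 3 genes, the log2 ratio of Cd74 was 3.19 in young and −1.30 in old. For H2-Ab1 it was 2.76 and −0.73, for H2-DMa 2.30 and −0.43, and for H2-DMb1 1.04 and −0.23. Of the Cd74 UMIs of the young cells, 1 barcode held 49.7%. Without barcodes carrying leukocyte markers the ratios were 0.21 and 0.46 for Cd74, 1.11 and 0.32 for H2-Ab1, 0.76 and 0.51 for H2-DMa, and 0.30 and 0.20 for H2-DMb1. Of these, the 95% intervals spanned 0 for Cd74 in young (−0.26 to 0.70), H2-DMa in young (−0.30 to 1.99) and H2-DMb1 in both (−0.44 to 1.10 and −0.09 to 0.49).

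Tgfbi, a matrix protein gene, had ratios of 2.48 and −2.76, the chemokine Cxcl2 2.91 and −2.77, and the lipoprotein lipase Lpl 2.32 and −3.29. The same filter gave 1.08 and −0.50 for Tgfbi, −2.42 and −0.53 for Cxcl2 (1 and 2 UMIs in young), and −0.0085 and −1.14 for Lpl, each with an interval that spanned 0. Against EC over the regional limit, the protease Adamts1 had ratios of 0.39 in young and −0.31 in old. The log2 ratio of old over young of Retnla was −2.67 in Bcan Isl1 Frzb cells and 5.69 in kept EC with none of the 3 genes. A single young barcode held 97.7% of its UMIs in the first class. Without barcodes carrying leukocyte markers the ratios were 1.85 and 1.92.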

How the results depend on the processing

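Against kept EC with none of the 3 genes, the counts of 1 higher and 9 lower depended on the settings. Without the replicate block it was 0 and 0 (319 genes at an unadjusted p under 0.05), with DESeq2 4 and 12 (140 such genes), and without a filter on low sums 98 and 279. With 3 or more UMIs it was 8 and 21, with at least 2 of the 3 genes 15 and 35, with a reference of 0 or 1 UMI 78 and 214, with all EC kept 129 and 153, and with a cell filter 12 and 35. Thinning before the rule gave 30 and 73, and after it 32 and 83. Cells matched on depth gave 21 and 66, the doublet filter 32 and 62, and that filter without the erythroid list 67 and 114. The cause was not tested. Against EC over the regional limit, DESeq2 gave 92 and 114, no replicate block 2 and 4, and thinning 146 and 164.

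The share of Bcan Isl1 Frzb cells in young went to 32.8% with 3 or more UMIs, 31.6% with at least 2 of the genes, 31.4% over all EC and 18.3% with thinning. In old it went to 35.2%, 40.0%, 46.0% and 32.2%, and to 41.0% with the doublet filter, which left 588 kept EC in old because most carry haemoglobin UMIs. With that filter the young share was 43.7%, above the old one. Without its erythroid list the shares were 44.4% in young and 51.8% in old.

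After thinning, Sap30l (−0.44) and Klhl21 (−0.62) against the reference and Ccl6 (−1.58) against EC over the limit changed sign, as did Ccl9 (−0.51) with the doublet filter without the erythroid list. Retnla in old over young went to 1.25 with thinning, 1.70 with the doublet filter and 1.85 with that filter without the erythroid list. Frzb in old over young went to −0.048 with at least 2 of the genes and to −0.35 with thinning. With 1 library left out there is no fit, so only the value of each library was compared. Precision is limited by 1 animal per age and by the low UMI counts of the 3 genes, a median of 3 per Bcan Isl1 Frzb cell.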

Other observations

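Ncam1, the neural cell adhesion molecule and a member of the Schwann or neural marker list, stood at 199 CPM in young and 137 in old Bcan Isl1 Frzb cells. It stood at 151 and 88.5 CPM in kept EC with none of the 3 genes, and at 53.5 and 43.7 CPM in EC over the regional limit. Both libraries gave the same order. The gene was picked after its values were seen, and no explanation was tested.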
